A study of Mus musculus with 6 samples.

Results

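The genes described here are 52 genes of ribosome biogenesis, the assembly line that makes ribosomes in the nucleolus. They were chosen by name, and each of the 52 names was found once among the 55487 genes of the deposited expression table. RNA was sequenced from LT-HSCs, long-term haematopoietic stem cells by their label, taken from the bone marrow of mice whose genotype is given as Mmrn1-GFP type, where GFP is green fluorescent protein. The study compared 3 libraries of Mmrn1-high cells with 3 libraries of Mmrn1-low cells. Both groups shared the tissue, the genotype and the stem cell label and differed in their Mmrn1 status. Mmrn1 encodes multimerin 1, a secreted protein of platelets and endothelium. Whether replicates are separate mice or sorts is not in the labels, so p-values here reflect a spread between libraries that may be technical. The sources used here do not give the surface gate, the age and sex of the mice or the element that drives GFP.

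Ribosome production starts when RNA polymerase I copies the ribosomal DNA into a long precursor RNA. Small nucleolar ribonucleoproteins (snoRNPs) modify that precursor, the small subunit processome folds and cuts it, and separate sets of assembly factors build the small and the large subunit before both leave the nucleus. Growing and dividing cells make many ribosomes, and Myc is a well known activator of the genes for this machinery. Blood stem cells in the adult marrow are known for a low rate of protein synthesis. The roles named here were largely worked out in the yeast Saccharomyces cerevisiae and in human cells.

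Total counts per library were 11595104, 30909990 and 14236755 in the Mmrn1-high group, against 16657398, 14288095 and 30180151 in the Mmrn1-low group. All 52 genes passed the filter on low counts, with 329 counts for the lowest gene in any library and 68815 for the highest. Mmrn1 itself had 8.82, 9.80 and 11.5 CPM in the Mmrn1-high libraries, against 5.65, 5.61 and 5.82 CPM in the Mmrn1-low libraries, so each library stood on the side its label gives. Of 15419 genes tested over the whole table, 4737 (30.7%) were higher and 4701 (30.5%) lower in Mmrn1-high cells. Levels are counts per library scaled to a common total (CPM) with TMM factors, which adjust library size for composition. A call means a Benjamini-Hochberg adjusted p under 0.05 in edgeR's quasi-likelihood test.

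Most of the ribosome biogenesis genes were lower in Mmrn1-high cells, by small amounts. The test called 44 of the 52 lower and 1 higher, against 30.5% of all genes tested called lower and 30.7% called higher, and it left 7 uncalled (Polr1e, Ubtf, Imp3, Nob1, Gnl2, Gnl3 and Noc2l). With counts scaled by library size alone, 28 were lower and 3 higher, against 20.7% of all genes tested called lower and 40.2% called higher. The median log2 fold change (Mmrn1-high minus Mmrn1-low) was -0.28 over the 52 genes and 0.01 over all genes tested, and the range over the 52 genes was -0.73 to 0.22. Without TMM factors the median of all genes moved to 0.15 and that of the 52 genes to -0.13. Dropping the factors shifts all genes nearly alike, so the distance of -0.28 between these medians stays by construction. This distance was -0.23 with a filter of at least 5 CPM in 3 libraries. With log2(FPKM + 1), where FPKM is a level divided by gene length, it was -0.21. The changes were small in size: 8 genes (Bysl, Bop1, Nhp2, Ebna1bp2, Rrp12, Noc4l, Heatr1 and Ftsj3) fell by at least 0.5 on the log2 scale, a fall that 13.5% of all genes tested showed, and 0 fell by at least 1, where 4.9% of all genes did. In 44 genes every Mmrn1-high library was below every Mmrn1-low library, and in 2 genes, Polr1c and Noc2l, every Mmrn1-high library was above. The same separations held for 33.7% and 34.1% of all genes tested, and a separation in either direction, seen in 46 of the 52, held for 67.8%.

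**Figure D1:**
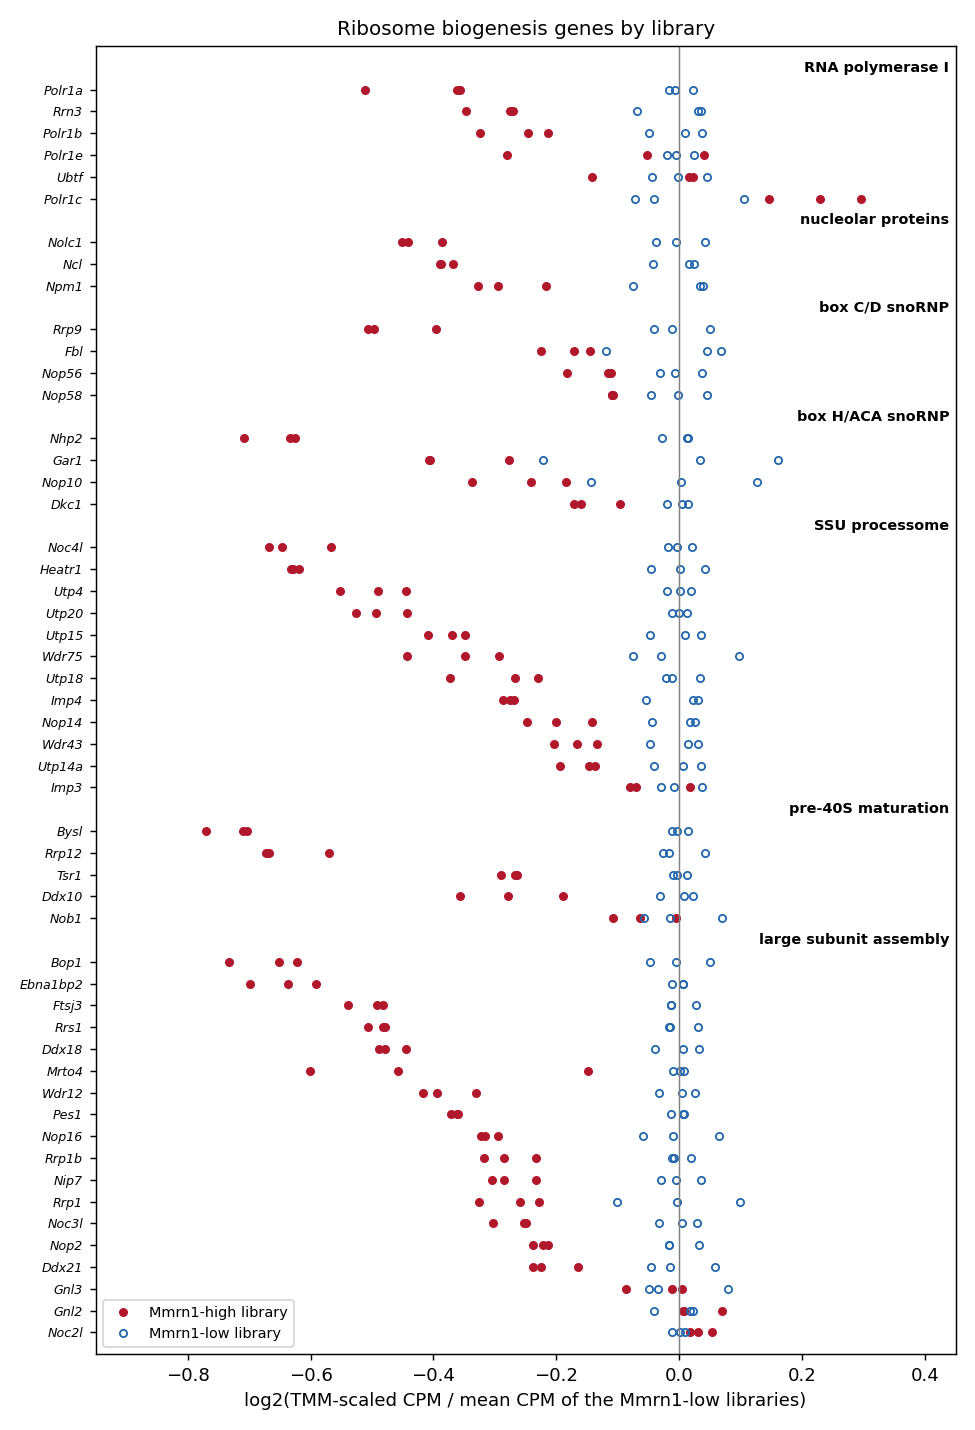
Each point is the level of a gene in 1 library, as the log2 ratio of its TMM-scaled CPM to the mean of the 3 Mmrn1-low libraries, with filled points for Mmrn1-high and open points for Mmrn1-low libraries and the genes grouped by role. Filled points lie left of all open points in 44 of the 52 genes with TMM factors, whereas with library size alone the fold changes of Nop56, Nop58 and Dkc1 turn to the other side of 0.

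Summed over the 52 genes, the level was 8412, 8462 and 8458 CPM in the Mmrn1-high libraries and 10424, 10435 and 10502 CPM in the Mmrn1-low libraries. The groups were far apart relative to their spread, with means of 8444 ± 27.4 CPM in Mmrn1-high cells and 10454 ± 42.2 CPM in Mmrn1-low cells (SD, n = 3 each) and a ratio of 0.808. The sum did not rest on its most abundant genes. Without Ncl and Npm1 it was 5848 ± 23.5 CPM in Mmrn1-high cells and 7143 ± 13.4 CPM in Mmrn1-low cells (SD, n = 3 each). As a share of all counts, with no scaling factor, the 52 genes took 0.888%, 0.888% and 0.887% of the Mmrn1-high libraries, against 0.986%, 0.990% and 0.999% of the Mmrn1-low libraries. In bulk samples, fewer cells of a type and less RNA per cell cannot be told apart, and this holds for each level given here.

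To show what these genes look like where transcription starts, the promoters of 6 of them are printed here, from RefSeq on build GRCm38.p6, 250 bases before to 50 after the start. Bysl, Nhp2 and Ebna1bp2 were among the genes with the largest falls, Utp4 and Rrn3 carried both common motifs, and Polr1c was the one gene called higher. Capitals mark matches on either strand to CACGTG, the E-box that Myc with Max binds, and to CCGGAAG, a motif of ETS family factors. The regions are chr17:47611443-47611742 on the minus strand for Bysl, chr11:51619523-51619822 on the plus strand for Nhp2, chr4:118620549-118620848 on the plus strand for Ebna1bp2, chr8:106893390-106893689 on the plus strand for Utp4, chr16:13780449-13780748 on the plus strand for Rrn3 and chr17:46247996-46248295 on the minus strand for Polr1c.
Bysl: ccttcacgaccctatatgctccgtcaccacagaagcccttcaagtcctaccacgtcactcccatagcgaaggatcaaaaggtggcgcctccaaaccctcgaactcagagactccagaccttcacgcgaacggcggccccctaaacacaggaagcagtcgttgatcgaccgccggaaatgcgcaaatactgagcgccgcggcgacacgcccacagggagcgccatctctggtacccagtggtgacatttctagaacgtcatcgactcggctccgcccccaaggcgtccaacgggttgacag
Nhp2: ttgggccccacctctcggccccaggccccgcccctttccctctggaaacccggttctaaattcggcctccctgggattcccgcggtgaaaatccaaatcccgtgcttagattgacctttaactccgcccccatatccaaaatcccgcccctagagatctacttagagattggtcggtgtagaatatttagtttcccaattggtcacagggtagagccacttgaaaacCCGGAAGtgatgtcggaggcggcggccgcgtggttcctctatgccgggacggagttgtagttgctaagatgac
Ebna1bp2: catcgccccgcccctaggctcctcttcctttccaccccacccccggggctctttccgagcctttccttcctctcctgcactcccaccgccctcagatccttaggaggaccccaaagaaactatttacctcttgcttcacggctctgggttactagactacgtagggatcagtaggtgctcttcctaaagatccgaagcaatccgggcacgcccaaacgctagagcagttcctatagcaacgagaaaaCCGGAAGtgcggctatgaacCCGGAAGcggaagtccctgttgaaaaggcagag
Utp4: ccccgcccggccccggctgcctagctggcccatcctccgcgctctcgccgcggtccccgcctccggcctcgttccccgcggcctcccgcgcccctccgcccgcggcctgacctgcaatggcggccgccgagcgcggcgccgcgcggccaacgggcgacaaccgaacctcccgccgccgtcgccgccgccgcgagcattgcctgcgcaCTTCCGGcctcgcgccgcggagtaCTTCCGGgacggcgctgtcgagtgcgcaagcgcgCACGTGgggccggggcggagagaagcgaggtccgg
Rrn3: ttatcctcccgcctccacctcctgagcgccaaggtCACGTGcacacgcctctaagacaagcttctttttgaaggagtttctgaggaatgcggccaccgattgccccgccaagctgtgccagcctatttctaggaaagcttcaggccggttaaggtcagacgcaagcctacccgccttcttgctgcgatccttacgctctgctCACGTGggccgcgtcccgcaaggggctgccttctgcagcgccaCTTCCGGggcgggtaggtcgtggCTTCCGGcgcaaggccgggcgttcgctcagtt
Polr1c: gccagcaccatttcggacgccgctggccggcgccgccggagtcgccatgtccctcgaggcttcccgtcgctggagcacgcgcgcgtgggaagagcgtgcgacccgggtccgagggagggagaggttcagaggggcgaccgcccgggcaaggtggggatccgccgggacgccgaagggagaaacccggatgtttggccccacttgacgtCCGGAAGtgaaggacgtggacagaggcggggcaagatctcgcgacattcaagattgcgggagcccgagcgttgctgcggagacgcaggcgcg
The Bysl window held neither motif, and the Polr1c window held CCGGAAG.

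Promoters were found for 46 of the 52 genes, all but Npm1, Fbl, Rrp12, Bop1, Rrs1 and Gnl2. CACGTG stood in 9 of the 46 (19.6%), against 8.09% of the 27025 genes in the promoter table and 11.7% of the 10232 tested genes found there. CCGGAAG stood in 16 of the 46 (34.8%), against 9.93% of all genes in the promoter table and 20.1% of the tested genes found there. Some genes, such as Ubtf and Wdr12, had several windows, and a gene counted if any of its windows matched. GCATGCGC, a motif of Nrf1, stood in 3 (6.52%, against 3.05% and 5.93%), and AAGATGGCG, a motif of Yy1, stood in 2 (4.35%, against 1.64% and 3.59%). Both strands were searched and none of these motifs contains another, although CCGGAAG and AAGATGGCG can share letters. Genes with and without the commoner motifs had similar fold changes: the median log2 fold change was -0.29 for the 9 with CACGTG and -0.27 for the 37 without it, and -0.28 for both the 16 with CCGGAAG and the 30 without it. All 9 genes with CACGTG were called lower, as were 30 of the 37 without it, and of the genes with CCGGAAG 13 of 16 were called lower, as were 26 of the 30 without it. The 3 genes with GCATGCGC had a median of -0.06, with 1 called lower, and the 2 with AAGATGGCG had -0.39, with 2 called lower. A match is a description of the letters in the window and says nothing of binding in these cells.

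Within the RNA polymerase I machinery the genes moved in different directions. Of 6 genes, 3 were lower (50%, against 30.5% of all genes tested), 1 was higher and 2 were not called. With library size alone, 2 were lower (33.3%, against 20.7% of all genes tested) and 1 higher. The summed level was 605 ± 13.4 CPM in Mmrn1-high cells and 668 ± 7.49 CPM in Mmrn1-low cells (SD, n = 3 each). Polr1a, the largest catalytic subunit, had 90.3, 100.1 and 100.4 CPM in the Mmrn1-high libraries, against 128, 131 and 127 CPM in the Mmrn1-low libraries. Its log2 fold change was -0.41 ± 0.05 (SE), with a Benjamini-Hochberg adjusted p of 0.00013 in edgeR's quasi-likelihood test, and the groups did not overlap. Rrn3, the initiation factor that brings the polymerase to the ribosomal DNA promoter, had 78.6, 82.9 and 82.6 CPM in the Mmrn1-high libraries, against 95.4, 102 and 102 CPM in the Mmrn1-low libraries, and fell by 0.30 on the log2 scale. Polr1b, the other catalytic subunit, fell by 0.26. Polr1c (ENSMUSG00000067148, chr17:46243920-46248054), a subunit that polymerase I shares with polymerase III, had 79.1, 71.2 and 75.4 CPM in the Mmrn1-high libraries, against 69.3, 61.2 and 62.6 CPM in the Mmrn1-low libraries. Its position, like those of the other genes, is on build GRCm38. Its groups were close but did not overlap, and the log2 fold change was 0.22 ± 0.06 (SE) at an adjusted p of 0.0138 in edgeR's test. The call of Polr1c was lost without Mmrn1-low replicate 2, where its adjusted p was 0.0526. Ubtf, which binds along active ribosomal DNA, had 248, 221 and 247 CPM in the Mmrn1-high libraries, against 252, 237 and 244 CPM in the Mmrn1-low libraries, and Polr1e, a subunit found only in polymerase I, had 27.1, 33.9 and 31.8 CPM in the Mmrn1-high libraries, against 33.5, 32.8 and 32.5 CPM in the Mmrn1-low libraries. Both overlapped between the groups, with adjusted p of 0.585 for Ubtf and 0.410 for Polr1e in edgeR's test.

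The genes of all 3 abundant nucleolar proteins were lower, also with library size alone. Ncl (ENSMUSG00000026234, chr1:86344719-86359400) encodes nucleolin, which binds the nascent precursor RNA, and had 1800.3, 1827 and 1802 CPM in the Mmrn1-high libraries, against 2289.6, 2384 and 2397 CPM in the Mmrn1-low libraries. Its log2 fold change was -0.38 ± 0.03 (SE), with an adjusted p of 5.73e-06 in edgeR's test. Nolc1, a chaperone of snoRNPs, had 218, 227 and 217 CPM in the Mmrn1-high libraries, against 305, 288 and 295 CPM in the Mmrn1-low libraries, a log2 fold change of -0.43 ± 0.03 (SE). Npm1, nucleophosmin, which organises the outer part of the nucleolus and is often mutated in acute myeloid leukaemia, had 778, 759.8 and 821 CPM in the Mmrn1-high libraries, against 979.6, 906 and 976 CPM in the Mmrn1-low libraries, a log2 fold change of -0.28 ± 0.04 (SE). In each of the 3 genes the libraries of the 2 groups were separate.

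Box C/D snoRNPs are particles that mostly guide methylation of ribosomal RNA, and the genes of their proteins had a median log2 fold change of -0.16. All 4 were called lower with TMM factors and the filter on low counts used here, but 1 of 4, Rrp9, with at least 5 CPM in 3 libraries (also with TMM factors), with library size alone and with log2(FPKM + 1). In the latter settings 32.4%, 20.7% and 23% of all genes tested were called lower, in that order. Nop56 and Nop58 also lost their calls with no filter on low counts. Fbl and Nop58 each lost the call in several of the fits that left out 1 library. Rrp9, which belongs to the snoRNP that guides early cleavage of the precursor, had 42.2, 45.3 and 41.9 CPM in the Mmrn1-high libraries, against 61.7, 59.2 and 57.9 CPM in the Mmrn1-low libraries. Its log2 fold change was -0.46 ± 0.05 (SE), with an adjusted p of 0.000121 in edgeR's test. Fbl, fibrillarin, the methyltransferase of the particle, had 211, 204 and 215 CPM in the Mmrn1-high libraries, against 249, 245 and 219 CPM in the Mmrn1-low libraries, so that its highest Mmrn1-high library lay just under its lowest Mmrn1-low library. Its log2 fold change was -0.18 ± 0.05 (SE). The scaffold proteins Nop56 and Nop58 had log2 fold changes of -0.14 ± 0.03 and -0.11 ± 0.03 (SE), which turned to 0.01 and 0.04 with library size alone. Nop58 was nearly identical across the Mmrn1-high libraries, at 211.4, 211.5 and 211.3 CPM.

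Box H/ACA snoRNPs guide pseudouridylation, and the same particle proteins hold telomerase RNA. All 4 genes of these proteins were called lower with TMM factors, and 1 of 4, Nhp2, with library size alone or log2(FPKM + 1). Of all genes tested, 20.7% were called lower with library size alone and 23% with log2(FPKM + 1). Nhp2 (ENSMUSG00000001056, chr11:51619735-51623714), a core protein, had 129.6, 129 and 122 CPM in the Mmrn1-high libraries, against 196, 202 and 202 CPM in the Mmrn1-low libraries. This was one of the largest falls of the 52 genes, at -0.66 ± 0.03 (SE) on the log2 scale and an adjusted p of 1.44e-06 in edgeR's test. Dkc1, dyskerin, the pseudouridine synthase that forms a particle with Nhp2, had 209, 207 and 218 CPM in the Mmrn1-high libraries, against 234, 235 and 229.7 CPM in the Mmrn1-low libraries. Its log2 fold change was -0.14 ± 0.03 (SE) with TMM factors and 0.01 with library size alone. Gar1 and Nop10, the other core proteins, fell by 0.36 and 0.25 with TMM factors and were spread more widely, with Gar1 at 87.3, 95.4 and 73.2 CPM in the Mmrn1-low libraries. Both also lost their calls in some settings that kept TMM factors. For Gar1 these were the fits without Mmrn1-low replicate 1 or without Mmrn1-high replicate 2 or 3. For Nop10 they were the replicate block and the fits without Mmrn1-low replicate 2 or without Mmrn1-high replicate 2 or 3.

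The small subunit processome assembles on the nascent precursor and releases the small subunit part. Of its 12 genes 11 were lower with TMM factors and 8 with library size alone, and the median log2 fold change was -0.32. The summed level was 1095 ± 8.88 CPM in Mmrn1-high cells and 1390.3 ± 5.92 CPM in Mmrn1-low cells (SD, n = 3 each). Noc4l, which acts with Nop14 in processing the small subunit RNA, had 66.5, 63.0 and 62.0 CPM in the Mmrn1-high libraries, against 98.2, 99.97 and 97.3 CPM in the Mmrn1-low libraries. Heatr1 (ENSMUSG00000050244, chr13:12395027-12440289), a large scaffold of the subcomplex that links transcription to processing, had 127, 127 and 128 CPM in the Mmrn1-high libraries, against 190.4, 197 and 202 CPM in the Mmrn1-low libraries. Both falls were far larger than the spread, with log2 fold changes of -0.63 ± 0.04 for Noc4l and -0.63 ± 0.03 for Heatr1 (SE) and adjusted p of 5.3e-06 and 1.44e-06 in edgeR's test. Utp4, of the same subcomplex as Heatr1, had 66.8, 69.7 and 72.0 CPM in the Mmrn1-high libraries, against 96.6, 98.0 and 99.3 CPM in the Mmrn1-low libraries. Utp20, a very large scaffold protein, had 98.9, 103 and 96.7 CPM in the Mmrn1-high libraries, against 139, 138 and 141 CPM in the Mmrn1-low libraries. Each fell by 0.49 on the log2 scale, and the groups did not overlap in either gene. The others that fell were Utp15 (-0.38), Wdr75 (-0.36), Utp18 (-0.29), Imp4 (-0.28), Nop14 (-0.20), Wdr43 (-0.17) and Utp14a (-0.16), given as log2 fold changes. Imp3, a small protein that binds the processome's guide RNA together with Imp4, was not called, at 70.5, 70.01 and 75.0 CPM in the Mmrn1-high libraries, against 76.0, 72.5 and 73.6 CPM in the Mmrn1-low libraries, with an adjusted p of 0.427 in edgeR's test.

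Among 5 further small subunit factors, most of which mature or export its precursor, 4 were lower with TMM factors and 3 with library size alone. Bysl (ENSMUSG00000023988, chr17:47599331-47611492), bystin, had the largest fall of the 52 genes with TMM factors. It had 46.8, 49.1 and 48.8 CPM in the Mmrn1-high libraries, against 79.3, 80.7 and 79.7 CPM in the Mmrn1-low libraries, levels 1.66-fold higher in Mmrn1-low cells, the log2 fold change being -0.73 ± 0.04 (SE) at an adjusted p of 2.36e-06 in edgeR's test. Bysl shares 361 exon bases, 9.37% of its exons, with Ccnd3 on the opposite strand. Ccnd3 was not called, with a log2 fold change of -0.40 ± 0.70 (SE). It had 48.1, 64.4 and 70.9 CPM in the Mmrn1-high libraries, against 163, 37.6 and 42.2 CPM in the Mmrn1-low libraries. The negative sign for Ccnd3 thus rests on Mmrn1-low replicate 1. Rrp12, an export factor for both subunits, had 68.6, 73.4 and 68.3 CPM in the Mmrn1-high libraries, against 112, 107 and 108 CPM in the Mmrn1-low libraries. This was a log2 fold change of -0.63 ± 0.04 (SE), and the groups did not overlap. Tsr1, which holds the precursor in an inactive state, and Ddx10, an RNA helicase, each fell by 0.27. Nob1, the nuclease that trims the end of the small subunit RNA, had 74.8, 69.7 and 71.9 CPM in the Mmrn1-high libraries, against 78.8, 74.4 and 72.2 CPM in the Mmrn1-low libraries. Its groups overlapped and it was not called, with an adjusted p of 0.338 in edgeR's test.

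The large subunit assembly factors were the largest group, and 15 of 18 were lower with TMM factors, and 10 were lower and 2 higher with library size alone. Their summed level was 2435 ± 17.0 CPM in Mmrn1-high cells and 2976 ± 6.24 CPM in Mmrn1-low cells (SD, n = 3 each). Bop1 (ENSMUSG00000022557, chr15:76452989-76477277), which forms a complex with Pes1 and Wdr12 that is needed to process the large subunit RNA, had 118, 115 and 109 CPM in the Mmrn1-high libraries, against 188, 176 and 181 CPM in the Mmrn1-low libraries. Pes1 had 179.99, 179.9 and 179 CPM in the Mmrn1-high libraries, against 229, 232 and 232 CPM in the Mmrn1-low libraries, and Wdr12 had 86.2, 87.6 and 91.6 CPM in the Mmrn1-high libraries, against 113, 117 and 116 CPM in the Mmrn1-low libraries. All 3 genes of this complex fell, with log2 fold changes of -0.67 ± 0.04 for Bop1, -0.38 ± 0.04 for Wdr12 and -0.36 ± 0.03 for Pes1 (SE). Ebna1bp2, which takes part in early large subunit processing, had 110.1, 102 and 107 CPM in the Mmrn1-high libraries, against 166, 166 and 164 CPM in the Mmrn1-low libraries. Ftsj3, a methyltransferase of the large subunit precursor, had 159, 159.9 and 154 CPM in the Mmrn1-high libraries, against 228, 221 and 221 CPM in the Mmrn1-low libraries. Rrs1, which helps to load the ribonucleoprotein of the smallest ribosomal RNA, had 106, 107 and 108 CPM in the Mmrn1-high libraries, against 148, 153 and 148 CPM in the Mmrn1-low libraries. The groups were separate in these 3 genes, with log2 fold changes of -0.64 ± 0.04, -0.50 ± 0.03 and -0.49 ± 0.03 (SE) and adjusted p of 2.17e-06, 3.01e-06 and 4.43e-06 in edgeR's test.

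Other large subunit factors fell by 0.21 to 0.47 on the log2 scale. Ddx18, an RNA helicase, had a log2 fold change of -0.47, and Ddx21, a helicase that also acts in transcription by polymerases I and II, had 456, 475 and 452 CPM in the Mmrn1-high libraries, against 527, 516 and 555 CPM in the Mmrn1-low libraries, a log2 fold change of -0.21 ± 0.04 (SE). Mrto4, which holds the place of a stalk protein during assembly, had the largest SE of the 52 genes, at 26.9, 29.7 and 36.8 CPM in the Mmrn1-high libraries, against 40.8, 40.5 and 41.0 CPM in the Mmrn1-low libraries, with a log2 fold change of -0.39 ± 0.11 (SE). Nop16, Rrp1b, Nip7, Rrp1 and Noc3l, all processing factors, had log2 fold changes between -0.31 and -0.27, and Nop2, an RNA cytosine methyltransferase, had -0.22. Gnl3, nucleostemin, a GTPase described in stem cells, was not called, at 124, 117 and 125 CPM in the Mmrn1-high libraries, against 120.3, 132 and 122 CPM in the Mmrn1-low libraries. Gnl2, a related GTPase, was not called with TMM factors either, at 93.0, 97.1 and 92.9 CPM in the Mmrn1-high libraries, against 93.6, 89.9 and 94.0 CPM in the Mmrn1-low libraries. Noc2l, which also inhibits histone acetylation, had 303, 298 and 295 CPM in the Mmrn1-high libraries, against 292, 289 and 294 CPM in the Mmrn1-low libraries. Its Mmrn1-high libraries were all slightly above the Mmrn1-low libraries, but the difference was not called, at 0.03 ± 0.03 on the log2 scale (SE) with an adjusted p of 0.281 in edgeR's test. Noc2l was called higher with at least 5 CPM in 3 libraries, at 0.08 and an adjusted p of 0.0213, and with library size alone, at 0.18 and an adjusted p of 0.000439. Gnl2 was called higher with library size alone, at 0.18 and an adjusted p of 0.00403, and both genes were called higher in the 3 FPKM settings.

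Levels were compared between genes by FPKM, which divides by gene length and carries no composition correction. The sources used here do not give the lengths behind the deposited values. By counts and FPKM they matched the exon bases for Bysl and Imp3, but for Nop56 the length was far above its 4099 exon bases. Order and ratios between genes by FPKM are thus uncertain, whereas a fixed length leaves the comparison of the groups unchanged. Npm1 had the highest FPKM, at 205 ± 7.94 FPKM in Mmrn1-high cells and 225 ± 9.81 FPKM in Mmrn1-low cells (SD, n = 3 each). Ncl, which had more CPM than Npm1, followed at 157 ± 1.15 FPKM in Mmrn1-high cells and 184 ± 5.05 FPKM in Mmrn1-low cells. Polr1e was the lowest, at 5.63 ± 0.612 FPKM in Mmrn1-high cells and 5.42 ± 0.0722 FPKM in Mmrn1-low cells, and the median over the 52 genes was 19.8 FPKM in Mmrn1-high cells and 22.6 FPKM in Mmrn1-low cells. Ratios between some of the genes differed between the groups. The pairs that follow were chosen after their values were seen and carry no test, and ratios within a library need no scaling factor. Nhp2 over Dkc1 was 2.06, 2.07 and 1.86 in the Mmrn1-high libraries, against 2.78, 2.85 and 2.91 in the Mmrn1-low libraries, by FPKM. Bysl over Nob1 was 0.958, 1.08 and 1.04 in the Mmrn1-high libraries, against 1.54, 1.66 and 1.69 in the Mmrn1-low libraries. Polr1a over Polr1c was 0.288 ± 0.0303 in Mmrn1-high cells and 0.447 ± 0.0325 in Mmrn1-low cells (SD, n = 3 each). The groups were separate in these 3 ratios. Other pairs were closer: Wdr12 over Pes1 was 0.116 ± 0.00417 in Mmrn1-high cells and 0.117 ± 0.00159 in Mmrn1-low cells, and Nop58 over Nop56 was 1.41 ± 0.0392 in Mmrn1-high cells and 1.38 ± 0.0687 in Mmrn1-low cells.

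Outside the 52 genes, 125 further ribosome biogenesis genes were tested, of which 90 were lower, 5 higher and 30 not called, with a median log2 fold change of -0.28. The share called lower was 72%, against 30.5% of all genes tested. With library size alone 52 were lower (41.6%, against 20.7% of all genes tested) and 10 higher (8%, against 40.2%). In the small subunit list of 43 genes, 34 were lower and 1 higher. Mphosph10, a processome protein, had 56.5, 59.8 and 56.5 CPM in the Mmrn1-high libraries, against 94.4, 99.2 and 97.1 CPM in the Mmrn1-low libraries, and Pno1, the partner of Nob1, had 51.6, 57.6 and 58.0 CPM in the Mmrn1-high libraries, against 96.0, 87.7 and 88.8 CPM in the Mmrn1-low libraries. Riok2, a kinase of late small subunit maturation, was the 1 higher gene, at 64.5, 63.1 and 65.0 CPM in the Mmrn1-high libraries, against 47.1, 46.7 and 49.3 CPM in the Mmrn1-low libraries, a log2 fold change of 0.43 ± 0.04 (SE). In the large subunit list of 46 genes, 34 were lower and 3 higher. Tma16 had 38.2, 21.9 and 38.1 CPM in the Mmrn1-high libraries, against 67.2, 68.7 and 63.6 CPM in the Mmrn1-low libraries, with a wide spread and a log2 fold change of -1.04 ± 0.23 (SE). Nol8 had a log2 fold change of -0.56 ± 0.16 (SE). The 3 higher genes were Nop53 (0.50), Nsa2 (0.27) and Zfp622 (0.15), as log2 fold changes. Nop53, which recruits the RNA exosome to large subunit precursors, had 371, 365 and 384 CPM in the Mmrn1-high libraries, against 279, 252 and 260.1 CPM in the Mmrn1-low libraries.

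The exosome and snoRNP assembly list had 18 of 22 genes lower and 0 higher, and 4 not called (Exosc2, Exosc6, C1d and Nufip1). Its largest falls were in Ruvbl2, an ATPase that helps to assemble snoRNPs, at -0.56 ± 0.03, and in the exosome subunit Exosc3, at -0.47 ± 0.06 (log2 fold change, SE). The list of other RNA polymerase I genes had 4 of 14 lower (Polr2l, Polr1d, Cd3eap and Polr2f), 1 higher and 9 not called. The share called lower, 28.6%, was near the 30.5% of all genes tested. The median log2 fold change of this list was -0.0042, which turned to 0.14 with library size alone. The largest fall there was in Polr2l, a subunit shared by the nuclear polymerases, at -0.47 ± 0.07, followed by Polr1d, shared with polymerase III, at -0.36 ± 0.08. The 1 higher gene was Taf1d, of the factor that selects the ribosomal DNA promoter, at 0.39 ± 0.04 (log2 fold change, SE).

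**Figure D2:**
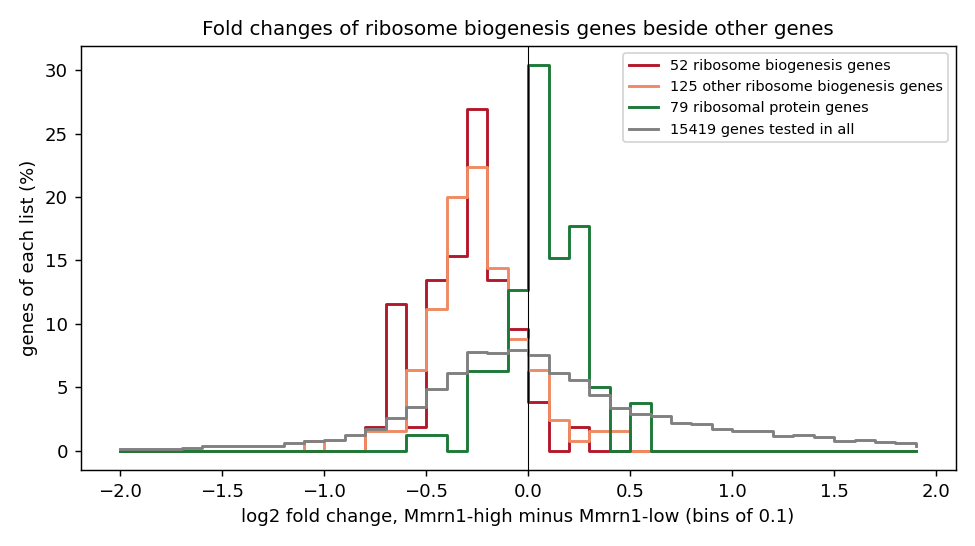
Share of genes (%) in bins of log2 fold change (Mmrn1-high minus Mmrn1-low, TMM factors) for the 52 genes, 125 other ribosome biogenesis genes, 79 cytosolic ribosomal protein genes and all 15419 genes tested, with genes beyond the axis not drawn. The 52 genes and the other biogenesis genes both centre at -0.28, the ribosomal protein genes at 0.07 and all genes at 0.01, and with library size alone the 4 medians are -0.13, -0.13, 0.22 and 0.15.

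The genes of the ribosome's own proteins were mostly not lower. Of 79 cytosolic ribosomal protein genes, 25 were higher, 8 lower and 46 not called, with a median log2 fold change of 0.07. The share called higher was 31.6%, near the 30.7% of all genes tested. With library size alone 48 were higher (60.8%, against 40.2% of all genes tested) and 1 lower. Their summed level was 31662 ± 388 CPM in Mmrn1-high cells and 29620 ± 328 CPM in Mmrn1-low cells (SD, n = 3 each). For every 100 counts of ribosomal protein genes, the 52 biogenesis genes had 26.4, 27.1 and 26.6 counts in the Mmrn1-high libraries, against 35.3, 34.8 and 35.8 counts in the Mmrn1-low libraries. This ratio is free of scaling factors, and its groups did not overlap. The called genes with the largest changes were Rps27 at 0.54 ± 0.11 and Rpl22 at 0.54 ± 0.04, both higher, and Rpl27 at -0.54 ± 0.08 and Rps29 at -0.41 ± 0.10, both lower (log2 fold change, SE). Rpl22 had 310.1, 313 and 289 CPM in the Mmrn1-high libraries, against 203, 219 and 207 CPM in the Mmrn1-low libraries, and Rpl27 had 39.4, 37.1 and 34.3 CPM in the Mmrn1-high libraries, against 56.2, 48.5 and 55.8 CPM in the Mmrn1-low libraries. Many ribosomal protein genes have processed pseudogene copies, and the counting could split reads between them, so single genes of this list are uncertain.

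Myc was not called, at 169.5, 182 and 199.9 CPM in the Mmrn1-high libraries, against 181, 167 and 150.5 CPM in the Mmrn1-low libraries, its log2 fold change being 0.15 ± 0.09 (SE) at an adjusted p of 0.185 in edgeR's test. Of the 9 genes of the Myc and Max network, 6 were higher (66.7%, against 30.7% of all genes tested), 0 lower and 3 not called (Myc, Max and Mxi1). The lowest log2 fold change of the 9 was -0.80, in a gene that was not called. The 6 were Mycn, Mycl, Mxd1, Mxd4, Mnt and Mga, of which the first pair are relatives of Myc and the others partner with Max or bind its sites. Mycn had 30.4, 30.3 and 30.1 CPM in the Mmrn1-high libraries, against 7.49, 7.01 and 6.17 CPM in the Mmrn1-low libraries, a log2 fold change of 2.15 ± 0.09 (SE) and an adjusted p of 3.73e-07 in edgeR's test. Mycl was low in all libraries, at 5.96, 4.47 and 5.56 CPM in the Mmrn1-high libraries, against 1.02, 1.03 and 1.25 CPM in the Mmrn1-low libraries, a log2 fold change of 2.22 ± 0.19 (SE).

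**Figure D3:**
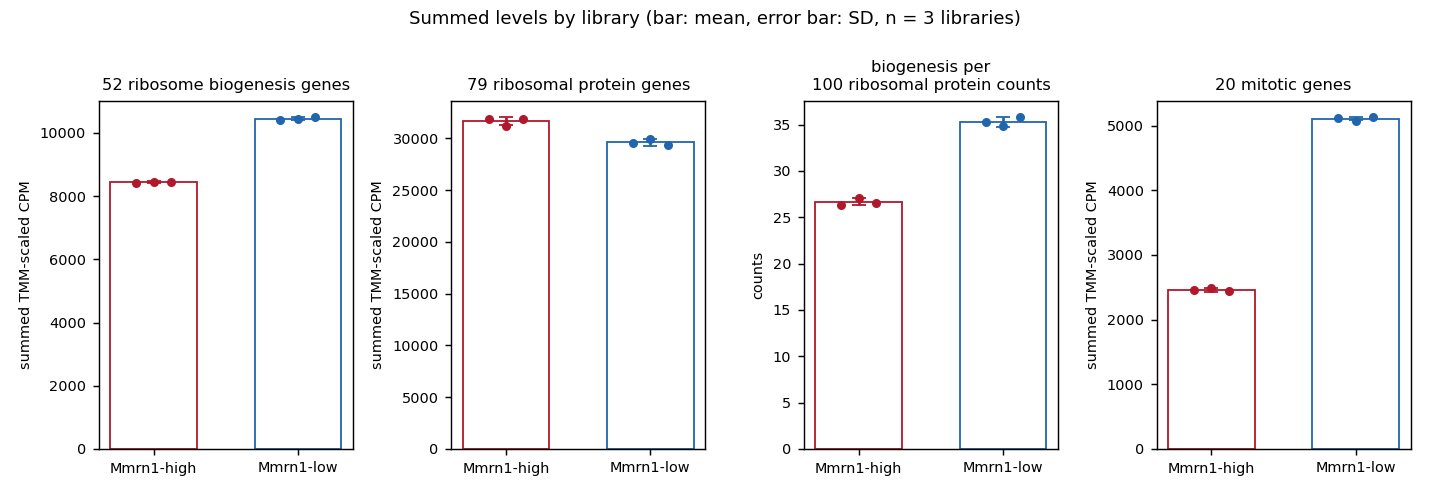
Bars show the mean of 3 libraries, points the libraries and error bars the SD, for the summed TMM-scaled CPM of the 52 biogenesis genes, of 79 ribosomal protein genes and of 20 mitotic genes, and for biogenesis counts per 100 ribosomal protein counts. The biogenesis sum is 8444 CPM in Mmrn1-high cells and 10454 CPM in Mmrn1-low cells. The mitotic sum lies at 2437 to 2494 CPM in Mmrn1-high cells and at 5079 to 5127 CPM in Mmrn1-low cells. With TMM factors the ribosomal protein sum is slightly higher in Mmrn1-high cells. As a share of all counts it differs more, at 3.37%, 3.28% and 3.34% in the Mmrn1-high libraries and 2.80%, 2.84% and 2.79% in the Mmrn1-low libraries.

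Other gene lists moved with the groups too, beside 30.7% of all genes tested called higher and 30.5% called lower. All 20 mitotic genes were lower, their log2 fold changes having a median of -1.09, with a summed level of 2437 to 2494 CPM in Mmrn1-high libraries and 5079 to 5127 CPM in Mmrn1-low libraries. Top2a was the most abundant of them, at 575 ± 10.1 CPM in Mmrn1-high cells and 1011 ± 8.09 CPM in Mmrn1-low cells (SD, n = 3 each). Of 14 granulocyte progenitor genes 13 were lower (all but Mgst1), with sums of 5706 to 5833 CPM in Mmrn1-high libraries and 30353 to 31589 CPM in Mmrn1-low libraries. Mpo, which makes up much of that sum, was at 1945 ± 20.6 CPM in Mmrn1-high cells and 12575 ± 434 CPM in Mmrn1-low cells (SD, n = 3 each). All 12 macrophage genes were lower, with sums of 52.3 to 53.2 CPM in Mmrn1-high libraries and 267 to 273 CPM in Mmrn1-low libraries, Slc40a1 being the most abundant at 17.5 CPM in Mmrn1-high cells and 85.2 CPM in Mmrn1-low cells. Of 10 erythroid genes 5 were lower (Klf1, Hba-a1, Car1, Tfrc and Rhd) and 1 higher (Hbb-bt), with sums of 447 to 450.3 CPM in Mmrn1-high libraries and 741 to 776 CPM in Mmrn1-low libraries. Of 11 plasma cell genes tested 5 were lower (Xbp1, Mzb1, Derl3, Fkbp11 and Igkc) and 1 higher (Sdc1), with sums of 697 to 749.97 CPM in Mmrn1-high libraries and 1178 to 1312 CPM in Mmrn1-low libraries. Of 7 T and NK cell genes tested 5 were higher (Lck, Trbc2, Gzmb, Klrb1c and Cd4) and 1 lower (Nkg7, which the granulocyte list also holds). Their sums were 154 to 159 CPM in Mmrn1-high libraries and 464 to 470.02 CPM in Mmrn1-low libraries. Nkg7 alone made up most of these sums, at 102 ± 1.18 CPM in Mmrn1-high cells and 449 ± 3.11 CPM in Mmrn1-low cells (SD, n = 3 each). The sums therefore follow Nkg7 and run against the 5 higher genes. Of 9 B cell genes tested 8 were higher (all but Cd79b), with sums of 58.6 to 60.5 CPM in Mmrn1-high libraries and 37.2 to 41.1 CPM in Mmrn1-low libraries. Of 10 genes that respond to cell handling 8 were higher and 2 lower (Hspa1a and Hspa1b), with sums of 3933 to 4001 CPM in Mmrn1-high libraries and 1291 to 1403 CPM in Mmrn1-low libraries.

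Of 16 stem cell genes, 14 were higher, 0 lower and 2 not called (Hoxb5 and Vwf). Both groups carry the stem cell label, so a difference between them does not test that label. The sums were 892 to 932 CPM in Mmrn1-high libraries and 509 to 535 CPM in Mmrn1-low libraries. Kit made up much of these sums. It was at 395 ± 5.17 CPM in Mmrn1-high cells and 329 ± 5.54 CPM in Mmrn1-low cells (SD, n = 3 each). Slamf1, a marker by which these cells are commonly sorted, was low in both groups, at 4.92 CPM in Mmrn1-high cells and 1.54 CPM in Mmrn1-low cells. Procr averaged 12.4 CPM in Mmrn1-high cells and 4.34 CPM in Mmrn1-low cells. Of 5 genes for surface proteins that gates for LT-HSCs commonly exclude, Cd48, Flt3, Cd34 and Il7r were higher and Fcgr3 was lower. Cd34 averaged 829 CPM in Mmrn1-high cells and 347 CPM in Mmrn1-low cells, Flt3 averaged 546 CPM in Mmrn1-high cells and 156 CPM in Mmrn1-low cells, and Cd48 averaged 139 CPM in Mmrn1-high cells and 97.7 CPM in Mmrn1-low cells. Of the markers in all these lists, 0 were at 0 counts in all 6 libraries. The part of any of these lists in the lower level of the biogenesis genes was not tested.

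**Figure D4:**
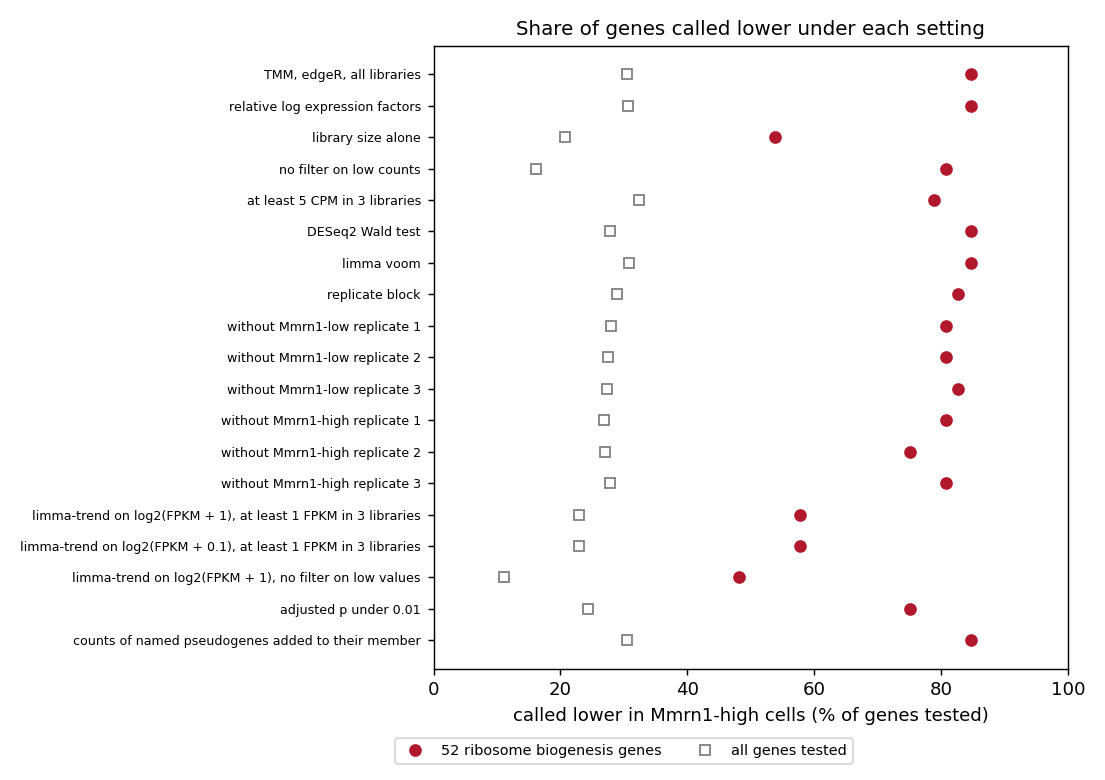
Share of genes called lower in Mmrn1-high cells (%) under each of 19 settings, for the 52 biogenesis genes (filled points) and all genes tested (open squares). The share of the 52 genes exceeds that of all genes in each setting, with 44 of 52 lower under TMM factors, 28 with library size alone and 25 with unfiltered FPKM, and the fold changes of Nop56, Nop58 and Dkc1 turn above 0 in the settings without a composition correction.

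The libraries were stranded, but the sources used here do not give the strand setting of the counting, so reads from genes that overlap on opposite strands may be mixed. Of the 52 genes, 19 shared exon bases with another gene, 14 of them with a protein-coding gene on the opposite strand. The 33 that shared none had 28 lower and 1 higher, with a median log2 fold change of -0.29, and the 19 that shared some had 16 lower and a median of -0.28. Shares of exon bases were 32.32% for Tsr1 with Srr, 20.86% for Noc2l with Samd11, 3.84% for Nhp2 with Rmnd5b, 1.98% for Heatr1 with Lgals8 and 1.69% for Bop1 with Mroh1. Adding the counts of named pseudogenes to Fbl, Mrto4 and Imp3 left 44 genes lower and 1 higher, with a log2 fold change of -0.18 for Fbl, -0.54 for Mrto4 and -0.05 for Imp3. The 21 snoRNA genes that lie inside 7 of the 52 genes had 0 to 28 counts per library and could not be compared at this depth after poly-A selection.

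Of the 44 genes called lower, 24 kept the call in all settings tried. They were Polr1a and Rrn3 of the polymerase I machinery, Ncl and Nolc1, Rrp9 and Nhp2 of the snoRNPs, Utp4, Utp15, Utp20, Heatr1, Imp4 and Noc4l of the processome, Rrp12, Bysl and Tsr1 of small subunit maturation, and Bop1, Pes1, Wdr12, Ftsj3, Ebna1bp2, Rrs1, Nip7, Nop16 and Ddx18 of the large subunit. The other 20 lost the call, or 3 of them also the direction (Nop56, Nop58 and Dkc1), in at least 1 setting. The count of genes called lower, with the share of all genes tested called lower beside it, was 44 (30.7%) with relative log expression factors, 42 (16.1%) with no filter, 41 (32.4%) with at least 5 CPM in 3 libraries, 44 (27.8%) with DESeq2, 44 (30.8%) with limma voom and 43 (28.8%) with a replicate block. It was 30 (23%) with log2(FPKM + 1), 30 (22.9%) with log2(FPKM + 0.1), 25 (11.1%) with log2(FPKM + 1) and no filter, and 39 (24.4%) at an adjusted p under 0.01. Leaving out 1 library gave 42 (26.9%), 39 (27%) and 42 (27.8%) without Mmrn1-high replicate 1, 2 or 3, and 42 (28%), 42 (27.6%) and 43 (27.4%) without Mmrn1-low replicate 1, 2 or 3.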

How the data were processed

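RNA-seq of 3 Mmrn1-high and 3 Mmrn1-low libraries was analysed from the deposited table. Stranded paired-end libraries of poly-A RNA were sequenced on an Illumina NovaSeq, per the labels' protocols. Tools named in the submitters' processing notes are CASAVA 1.8, HISAT2, edgeR and StringTie, with build GRCm38 and no roles. The sources used here do not give the strand setting or filters. Per the file headers, the table holds a raw read count and an FPKM value per gene and library; the deposited FPKM values carry no composition correction. No per-sample column was left unused. Positions are those of the deposited table.

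In R 4.3.3, the counts as deposited went into edgeR 4.0.16 (quasi-likelihood F test, robust fitting, TMM factors, filterByExpr, group as the only term), with Benjamini-Hochberg adjustment over 15419 genes and a threshold of 0.05. The standard error was taken as the absolute log2 fold change over the root of F. The fit was checked on simulated data with 50 genes changed at each of several folds. It recovered 8 of 50 at 1.25-fold, 21 at 1.5-fold, 44 at 2-fold and 46 at 4-fold. Of its 131 calls, 12 were false, a share above the threshold of 0.05. Changes as small as most of those described here were often missed in the simulation. It changed 200 of 14369 genes, whereas 61.2% of the genes tested were called in the data. Its recovery and its share of false calls therefore need not hold for these data. Libraries correlated at 0.9863 to 0.9888 within a group and 0.9459 to 0.9518 between groups, over log2 CPM of the tested genes. Depth was 11595104 to 30909990 counts, and counts give the precision of the fitted spread only. Exon overlap used GENCODE M21, in which the coordinates of 51 of the 52 genes were identical. Promoters came from RefSeq. Python 3.11.15, pandas 2.3.3 and Matplotlib 3.10.9 were used for the tables and plots.

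The members and gene lists were chosen with earlier results of these data known. All 52 members are named. Values in every library are given for those with the largest change in each direction within a role. The same holds for others that a sentence turns on. Fold changes or levels are given for the 2 called genes of each other pathway list with the largest change in each direction. They are also given for Myc and Mycn, and for the most abundant gene of some of the marker lists. Alternatives were other scaling (relative log expression, library size alone), other filters, DESeq2 1.42.0, limma 3.58.1 (voom, and limma-trend on log2(FPKM + 1) or log2(FPKM + 0.1), filtered at 1 FPKM in 3 libraries or unfiltered), a replicate block, leaving out each library, a threshold of 0.01 and, chosen after the data were seen, adding pseudogene counts and keeping genes that share no exon bases.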

Additional observations from a re-analysis of the deposited data

How the results depend on the processing

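The count of members called lower was 41 to 44 of 52 with relative log expression factors, no filter, at least 5 CPM in 3 libraries, DESeq2, voom, the replicate block and added pseudogene counts, and 39 at an adjusted p under 0.01, where 0 were higher. Leaving out each library in turn gave 39 to 43 lower, 0 to 1 higher and a median log2 fold change of -0.29 to -0.27; the 0 was without Mmrn1-low replicate 2, where Polr1c lost its call. With library size alone there were 3 higher, 28 lower and a median of -0.13; with at least 5 CPM, 2 higher and a median of -0.23. With log2(FPKM + 1), and likewise with log2(FPKM + 0.1), there were 4 higher, 30 lower and a median of -0.13, and with unfiltered log2(FPKM + 1) 3 higher, 25 lower and -0.13. Library size alone and FPKM correct no composition; otherwise the cause was not tested. All genes tested split into 6201 higher and 3193 lower with library size alone, against 4737 higher and 4701 lower with TMM factors.

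Log2 fold changes that changed sign were, with library size alone, Polr1e 0.0623, Ubtf 0.1151, Nop56 0.0126, Nop58 0.0394, Dkc1 0.0065, Imp3 0.1046, Nob1 0.0902 and Gnl3 0.1177. With log2(FPKM + 1), filtered or not, they were Polr1e 0.0439, Ubtf 0.1083, Nop56 0.0107, Nop58 0.0372, Dkc1 0.0056, Imp3 0.1028, Nob1 0.0836 and Gnl3 0.1091, and with log2(FPKM + 0.1) Polr1e 0.0502, Ubtf 0.1134, Nop56 0.0116, Nop58 0.0394, Dkc1 0.0057, Imp3 0.104, Nob1 0.0896 and Gnl3 0.117. At 5 CPM they were Ubtf 0.0166, Imp3 0.0062 and Gnl3 0.0195. Leaving out each library in turn, Polr1e ranged from -0.1424 to 0.0108 (above 0 without Mmrn1-high replicate 1), Ubtf from -0.0605 to 0.0368 (above 0 without Mmrn1-high replicate 2) and Gnl3 from -0.0506 to 0.0147 (above 0 without Mmrn1-high replicate 2 and, at 0.0088, without Mmrn1-low replicate 2).

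Replicate numbers did not pair the libraries: deviations of same-numbered libraries correlated at 0.0426, -0.0785 and 0.0286, and not every library correlated best with its own number. A fit with the replicate block gave 43 members lower and 1 higher, with a median of -0.28. Of the 7 uncalled members, Noc2l gained a call at 5 CPM, Noc2l and Gnl2 with library size alone and the 3 FPKM settings, and Imp3 with filtered FPKM, so at 3 libraries a group the calls of differences this small depend on the scaling and filter.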
